A study of Mus musculus with 2 samples.

Results

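Nucleic acid sensing depends on enzymes that clear DNA and RNA before the sensors meet them, and the transcripts of 6 such enzymes were followed here through the cell classes of the mouse spleen: Dnase1l3, Dnase2a, Trex1, Samhd1, Pld3 and Pld4. They were chosen by their known function, with earlier results of these data known. A column was found for 5 of the 6 among the 27032 genes of the count tables, and Trex1 is not analysed here. The cells came from 2 samples of Wild-Type mice, WT1 and WT2 (replicates 1 and 2 below), for which the labels name no treatment and whose splenic CD11c+ cells were enriched on magnetic beads and captured on the BD Rhapsody system with sample tags. By its methods the study worked with adult animals, male and female, and took littermates as WT controls. The age, sex and number of mice behind each sample are not stated, so the spread between both samples may be technical. All p-values rest on that spread, pooled for each gene over all classes of a fit and drawn towards that of other genes. A p-value therefore does not measure the spread of the compared classes alone.

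DNASE1L3 is a secreted DNase that digests DNA still bound in chromatin and in microparticles of dying cells, and in the spleen it is known as a product of dendritic cells (DCs) and macrophages. DNase II, encoded by Dnase2a, works in the acid lysosome on the DNA of engulfed cells and of nuclei expelled from erythroid precursors. PLD3 and PLD4 are lysosomal exonucleases that trim single-stranded nucleic acids from the 5′ end and so restrain TLR9 and TLR7. SAMHD1 cleaves deoxynucleotides, which limits reverse transcription, and is known as an interferon-inducible restriction factor.

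Of the 6393 cells deposited, 5651 passed the quality filter (2928 in replicate 1 and 2723 in replicate 2), with medians of 12220 and 11433 UMIs (unique molecular identifiers, 1 per captured transcript) per cell. No cell barcode occurred in both samples. Cells were classed by UMI thresholds on genes outside the set: macrophages by Vcam1 and C1qb, mature DCs by Ccr7 and Fscn1, type 1 conventional DCs (cDC1) by Clec9a and Xcr1, plasmacytoid DCs (pDC) by Siglech and Ccr9, B cells by Cd79a, T cells by Cd3e, NK cells by Ncr1, and type 2 conventional DCs (cDC2) by Clec4a4 (DCIR2 cDC2) or by Clec10a with Cd209a (CLEC10A cDC2). In each sample the macrophage, mature DC, B, T and NK classes held the highest level of every marker fixed for them, and cDC1s held that of 6 of 7. The pDC class was small, 13 and 19 cells, of which 9 and 12 also met a cDC2 gate, and 5 and 6 of its 8 markers peaked there. For the DCIR2 cDC2 and CLEC10A cDC2 classes at most 1 and 2 of 6 markers peaked in the class, so these names stand for the gate genes only. Of the DCIR2 cDC2s, 209 of 556 and 156 of 456 cells also met the CLEC10A cDC2 gate. Levels are given in CPM, the UMIs of a gene in the summed cells of a class in a sample, scaled to a total of 1000000, and a sum over cells cannot tell fewer positive cells from less RNA per cell. Fold changes are on the log2 scale with their standard error (SE), and adjusted p-values come from the edgeR quasi-likelihood test over 11903 genes with Benjamini-Hochberg adjustment and a threshold of 0.05. The fits rescale the sums, so a fold change can differ in size or sign from the ratio of CPM values. Where sums are said not to overlap, how often this holds over all genes was not counted.

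**Figure D1:**
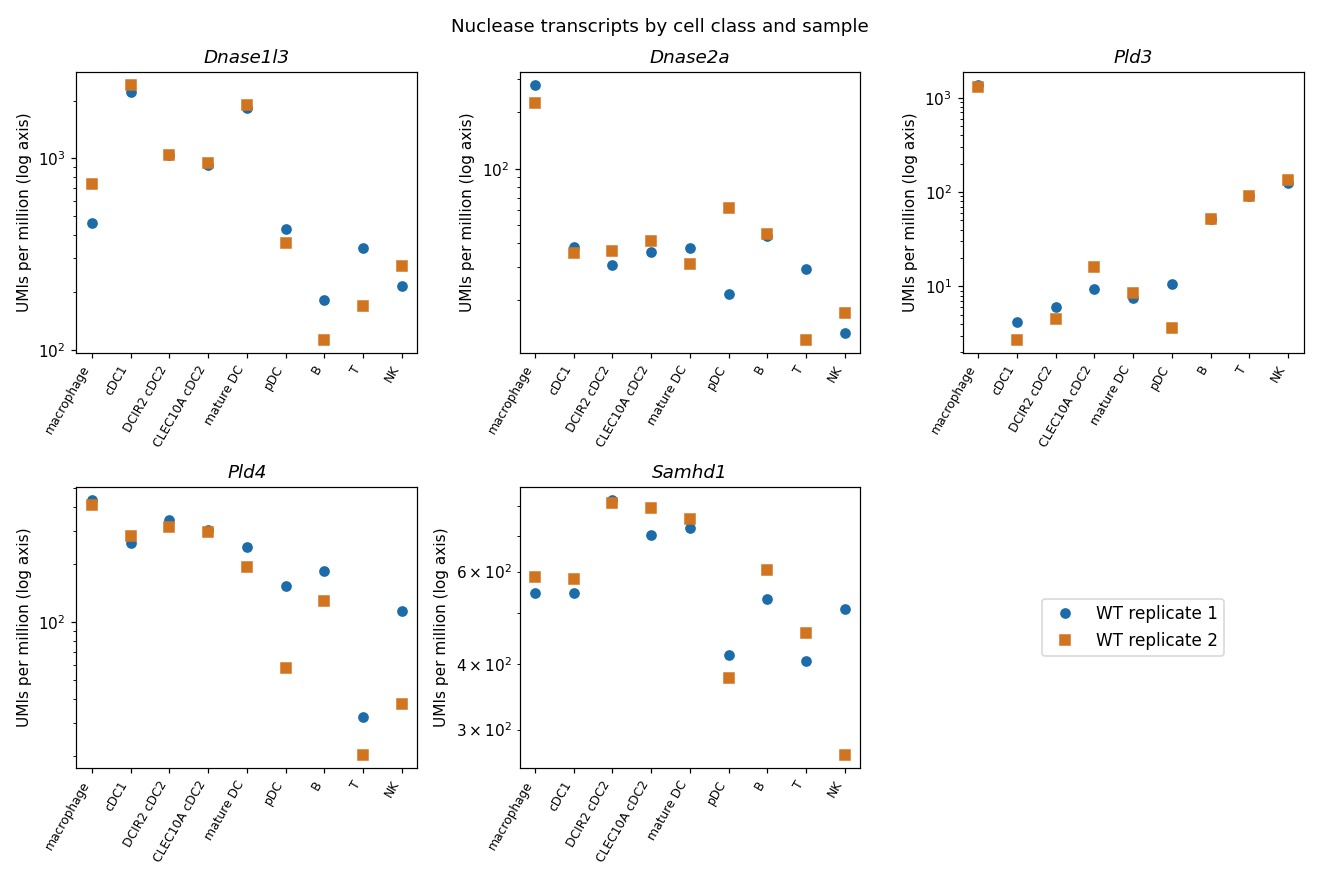
Levels of the 5 nuclease transcripts in CPM (log axes) by cell class, 1 point per class and sample. Dnase1l3 is highest in cDC1s, Dnase2a and Pld3 stand far above the other classes in macrophages, Pld4 is lowest in T cells, and Samhd1 spans the smallest ratio between its highest and lowest class mean.

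Dnase1l3 (GRCm38 chromosome 14, 7964533 to 7994573, minus strand) was a transcript of conventional DCs. In cDC1s its level was 2229 and 2432 CPM in replicates 1 and 2, against 1042 and 1046 CPM in DCIR2 cDC2s and 928.0 and 946.9 CPM in CLEC10A cDC2s. Both cDC1 sums lay above all cDC2 sums. On the log2 scale cDC1s exceeded cDC2s by 1.40 ± 0.18 (SE; edgeR adjusted p = 3.71e-06). Of the single cDC1s, 97.5% and 96.8% held at least 1 Dnase1l3 UMI, and the median cDC1 held 32 and 40.5 UMIs. The spread within the class was wide, with 10% of cDC1s at or below 5 and 4 UMIs and 10% at or above 96 and 108.6 UMIs.

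Mature DCs, which have left the resident state and carry the lymph node homing receptor CCR7, held 1825 and 1903 CPM of Dnase1l3. These values lay between those of cDC1s and cDC2s without overlap. Against the mean log2 level of the 3 resident cDC classes, mature DCs were higher by 0.56 ± 0.18 (SE; edgeR adjusted p = 0.0175), and the call was lost when either mature DC sum was left out (adjusted p = 0.0813 without replicate 1 and 0.187 without replicate 2) and without cells that met several gates (0.121). The difference between cDC1s and mature DCs did not pass the test (0.37 ± 0.22 on the log2 scale, edgeR adjusted p = 0.196).

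Macrophages of the gate held 457.5 and 738.6 CPM of Dnase1l3, below every cDC sum. They were lower than resident cDCs by a log2 difference of -1.08 ± 0.19 (SE; edgeR adjusted p = 8.74e-05). The class was uneven: 9 of 293 macrophages in replicate 1 and 8 of 130 in replicate 2 held at least 40 Dnase1l3 UMIs, a threshold chosen after the values were seen, and these few cells carried 22.1% and 44.4% of the Dnase1l3 UMIs of the class. In them the level of H2-Aa, an MHC class II chain, was 3637 and 6718 CPM against 1366 and 2310 CPM in the other macrophages. The iron exporter gene Slc40a1 stood at 4895 and 1417 CPM against 6732 and 5693 CPM. Macrophages below the threshold held 370.8 and 449.9 CPM of Dnase1l3.

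Lymphoid classes were lowest. B cells held 182.1 and 112.8 CPM, T cells 341.4 and 168.6 CPM and NK cells 214.7 and 275.1 CPM of Dnase1l3. T cells served as the reference class because they are not a known source of this enzyme. The part of free RNA in their level was not tested. A Dnase1l3 UMI was seen in 22.0% of T cells in replicate 1 (95% exact binomial interval 10.6 to 37.6%) and 24.5% in replicate 2 (18.1 to 32.0%), at median depths of 6145 and 6490 UMIs. Of the T cell UMIs, 84.9% and 69.6% lay in the 3 highest cells, and the median T cell held 0. With each cell thinned to 4000 UMIs the shares with a UMI were 17.9% and 19.1% of T cells, 31.1% and 22.4% of B cells, 42.9% and 31.4% of NK cells, 64.8% and 78.9% of macrophages and 93.0% and 92.2% of cDC1s. Thinning left out 4 and 7 B cells, 2 and 2 T cells and 3 and 1 NK cells that were too shallow. The share in B cells exceeded that in T cells while the CPM went the other way, so no order was read between them. These intervals cover counting error only.

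Dnase2a (chromosome 8, 84908560 to 84922915, plus strand) was a macrophage transcript. Macrophages held 281.0 and 223.9 CPM. In the other 8 classes the level ran from 12.2 to 61.4 CPM over all sums, with no overlap with macrophages. Macrophages exceeded resident cDCs by 2.88 ± 0.13 on the log2 scale (SE; edgeR adjusted p = 2.72e-13). A Dnase2a UMI was found in 93.2% and 91.5% of macrophages and in 40.1% and 39.3% of cDC1s, whose median depth was close to that of macrophages (19520.5 and 20890.5 against 19313 and 18136.5 UMIs). After thinning to 4000 UMIs the mean share was 64.5% in macrophages and 12.5% in cDC1s.

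Below macrophages the Dnase2a levels lay close together. Between B cells, pDCs, CLEC10A cDC2s, cDC1s, mature DCs and DCIR2 cDC2s no neighbouring pair in the order differed past the threshold, and the samples overlapped in each of these pairs. T cells (29.0 and 12.2 CPM) and NK cells (13.3 and 17.0 CPM) were lower than resident cDCs (34.9 and 37.5 CPM) by log2 differences of -1.35 ± 0.32 and -1.52 ± 0.44 (SE; edgeR adjusted p = 0.00267 and 0.0174). These rest on 9 and 15 UMIs in T cells and 5 and 5 in NK cells, and the calls were lost without T replicate 2 (adjusted p = 0.543) and without either NK sum (0.154 and 0.0665). The gene shares its interval with Mast1 on the opposite strand, which was listed at no more than 6.12 CPM in any sum. No source used here says whether strand entered the counting.

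Macrophages also held most erythroid mRNA. The summed level of 4 erythroid genes (Hba-a1, Hbb-bs, Hbb-bt and Alas2) was 2692 and 701.5 CPM in macrophages and at most 74.7 CPM in any other class, with all 4 genes above 0 in macrophages. It was higher in the sample with the higher Dnase2a level, and its part in the Dnase2a level was not tested.

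The 2 lysosomal exonucleases divided between the classes. Pld3 (chromosome 7, 27532000 to 27553218, minus strand) stood at 1375 and 1305 CPM in macrophages, where the median cell held 24 and 23 UMIs and 99.7% and 100% of cells held at least 1. Conventional and mature DCs lay between 2.72 and 16.0 CPM in every sum. Macrophages exceeded resident cDCs by 7.83 ± 0.14 on the log2 scale (SE; edgeR adjusted p = 3.46e-19).

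Lymphocytes lay between these extremes. NK cells held 124.6 and 135.8 CPM of Pld3, T cells 90.2 and 90.4 CPM and B cells 51.8 and 51.6 CPM. Each of these sums lay above every DC sum and below both macrophage sums. Against resident cDCs (6.55 and 7.75 CPM) the log2 differences were 4.14 ± 0.25, 3.69 ± 0.21 and 2.91 ± 0.23 (SE; edgeR adjusted p = 1.52e-10, 4.19e-11 and 2.82e-09). T cells exceeded B cells by 0.78 ± 0.25 (adjusted p = 0.0342), whereas the difference between NK and T cells did not pass (0.46 ± 0.26, adjusted p = 0.333). After thinning to 4000 UMIs a Pld3 UMI remained in 37.1% and 45.7% of NK cells, 25.6% and 28.7% of T cells, 16.4% and 15.8% of B cells and 0.881% and 0.883% of cDC1s. The macrophage markers, 8 genes, summed to 51.5 and 76.6 CPM in T cells and 117.2 and 95.7 CPM in cDC1s against 22659 and 20443 CPM in macrophages. In NK cells these markers summed to 196.2 and 61.1 CPM and in B cells to 80.1 and 47.9 CPM. The part of macrophage RNA in the Pld3 levels of lymphocytes was not tested.

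Within DCs the small Pld3 level varied. It was 6.08 and 4.50 CPM in DCIR2 cDC2s and 9.34 and 16.0 CPM in CLEC10A cDC2s, a log2 difference of -1.28 ± 0.26 (SE; edgeR adjusted p = 0.00434). The macrophage markers moved with it, at 58.5 and 56.1 CPM in DCIR2 cDC2s and 113.7 and 163.0 CPM in CLEC10A cDC2s, and their part in the difference was not tested. Only 44 and 27 UMIs and 51 and 75 UMIs stood behind these levels, 42.7% of the last in 3 cells, and the call was lost without replicate 2 of either class (adjusted p = 0.0946 and 0.219). cDC1s held 4.22 and 2.72 CPM, lower than cDC2s by a log2 difference of -1.05 ± 0.23 (adjusted p = 9.33e-04). Against DCIR2 cDC2s alone the difference was -0.41 ± 0.28 and did not pass (adjusted p = 0.276), and against CLEC10A cDC2s alone it was -1.69 ± 0.25 (adjusted p = 2.22e-05).

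Pld4 (chromosome 12, 112760655 to 112768990, plus strand) was shared by macrophages and conventional DCs. Its level was 433.4 and 406.2 CPM in macrophages, 342.0 and 312.5 CPM in DCIR2 cDC2s, 303.2 and 296.4 CPM in CLEC10A cDC2s and 257.2 and 279.5 CPM in cDC1s. In CPM no samples overlapped between these classes, and how often this holds over all genes was not counted. After the scaling of the fit no neighbouring pair among them differed past the threshold (edgeR adjusted p from 0.0513 to 0.956). CLEC10A cDC2s and cDC1s then differed by 0.02 ± 0.21 on the log2 scale (SE). Against the mean of resident cDCs macrophages were higher by 0.57 ± 0.17 on the log2 scale (SE; adjusted p = 0.00786), a call lost without macrophage replicate 1 (adjusted p = 0.0599). The difference between cDC1s and cDC2s was -0.06 ± 0.18 (95% interval -0.42 to 0.30, adjusted p = 0.846).

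Mature DCs held 246.6 and 193.9 CPM of Pld4, below every resident cDC sum, and their log2 difference of -0.38 ± 0.19 missed the threshold (edgeR adjusted p = 0.138) but passed it when cells of several gates were left out (adjusted p = 0.0169). B cells held 185.2 and 128.3 CPM and were lower than resident cDCs by a log2 difference of -1.11 ± 0.22 (SE; adjusted p = 3.65e-04). T cells held 32.2 and 20.4 CPM, the lowest of all classes, and were lower by -3.86 ± 0.33 (adjusted p = 1.12e-08). NK cells held 114.0 and 37.4 CPM, of which 3 cells carried 72.1% and 90.9%, and were lower by -2.15 ± 0.30 (adjusted p = 1.53e-05). A Pld4 UMI was seen after thinning to 4000 UMIs in 10.3% and 7.01% of T cells, the reference class. The shares were 45.9% and 32.1% in B cells and 63.4% and 64.3% in cDC1s.

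The ratio of Pld4 to Dnase1l3 differed between classes. For every 100 Dnase1l3 UMIs there were 11.5 and 11.5 Pld4 UMIs in cDC1s, 32.8 and 29.9 in DCIR2 cDC2s, 32.7 and 31.3 in CLEC10A cDC2s, 13.5 and 10.2 in mature DCs, 9.43 and 12.1 in T cells, 53.1 and 13.6 in NK cells, 94.7 and 55.0 in macrophages, and 101.7 and 113.7 in B cells. The ratios of T cells, cDC1s and mature DCs lay close together, and those of B cells lay above all others, next to macrophages.

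The balance between the pair differed from class to class. Pld3 made up 76.0% and 76.3% of all Pld3 and Pld4 UMIs in macrophages, 73.7% and 81.6% in T cells, 52.2% and 78.4% in NK cells and 21.9% and 28.7% in B cells. In DCs it made up between 0.965% (cDC1, replicate 2) and 6.45% (pDC, replicate 1). Most macrophages held both transcripts, 281 of 293 and 129 of 130 cells, whereas 618 of 684 and 527 of 568 cDC1s held Pld4 alone. In T cells, 14 of 41 and 52 of 159 held Pld3 alone and 5 and 8 held Pld4 alone.

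**Figure D2:**
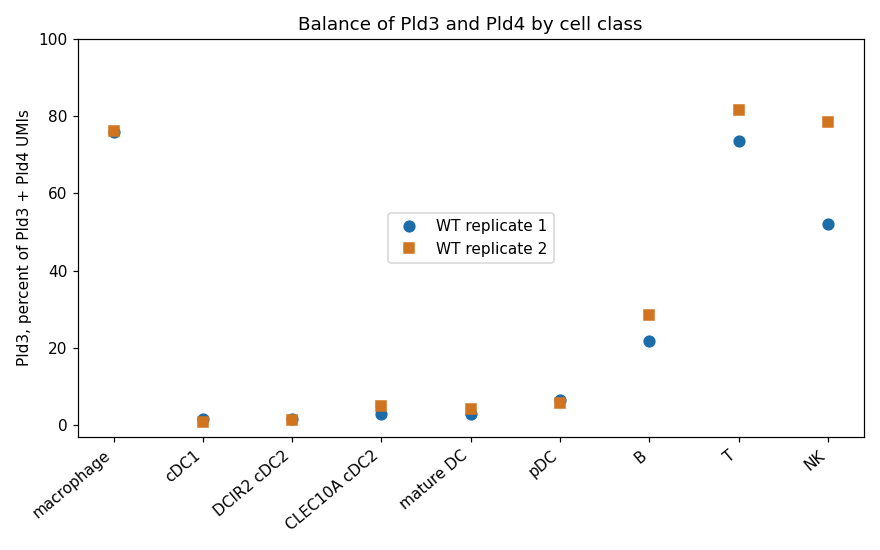
Pld3 as a percent of the summed Pld3 and Pld4 UMIs of each class, 1 point per sample. Macrophages and T cells lie between 73.7 and 81.6%, B cells between 21.9 and 28.7%, and all DC classes at or below 6.45%.

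Because these 2 paralogous enzymes had such different patterns, the 250 bases before each transcript start are shown, from the RefSeq promoter table (GRCm38.p6), 5′ to 3′ on the strand of the gene, Pld3 at chr7:27553219-27553468 and Pld4 at chr12:112760405-112760654. Capitals mark a match to a motif searched, and only Pld3 has one in this window.
Pld3: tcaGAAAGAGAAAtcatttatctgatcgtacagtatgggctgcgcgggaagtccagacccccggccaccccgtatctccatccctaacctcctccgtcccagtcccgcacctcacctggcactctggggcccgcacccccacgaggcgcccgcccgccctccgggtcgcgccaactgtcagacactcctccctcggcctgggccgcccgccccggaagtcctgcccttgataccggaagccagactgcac
Pld4: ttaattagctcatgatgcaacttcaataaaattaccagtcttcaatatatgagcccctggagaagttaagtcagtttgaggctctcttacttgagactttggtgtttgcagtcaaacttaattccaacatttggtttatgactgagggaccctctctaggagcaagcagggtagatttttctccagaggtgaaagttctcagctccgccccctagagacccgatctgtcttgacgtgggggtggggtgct
The Pld3 window has 66.4% G and C and the Pld4 window 45.2%. The motifs were searched on both strands in the full windows of 300 bases (250 before and 50 after the start). They were the core of the interferon-stimulated response element (GAAA, any 2 bases, GAAA), GAGGAAGT, a sequence bound by PU.1, and CACGTG, an E-box. Their shares among 32851 promoters were 3.44%, 3.20% and 7.15%. Among the 4 members in the table (Dnase2a, Samhd1, Pld3 and Pld4) there were 2 matches: the response element letters 247 to 238 bases before the Pld3 start, and the PU.1 letters within the first 50 bases after the Pld4 start. A match of letters is a description only.

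Samhd1 (chromosome 2, 157097533 to 157135265, minus strand) was expressed in every class. Its level was 822.0 and 809.9 CPM in DCIR2 cDC2s, 705.2 and 792.8 CPM in CLEC10A cDC2s, 725.2 and 755.2 CPM in mature DCs, 532.1 and 605.2 CPM in B cells, 546.1 and 585.6 CPM in macrophages and 546.6 and 580.1 CPM in cDC1s. T cells held 405.8 and 458.5 CPM, pDCs 415.8 and 375.6 CPM, and NK cells 509.0 and 268.3 CPM. The highest and the lowest class means were 815.9 and 388.6 CPM, the smallest ratio between such means among the 5 members. A Samhd1 UMI was present in 80.2% of T cells and 99.3% of DCIR2 cDC2s on average.

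Lymphoid classes and pDCs held less Samhd1 than resident cDCs (691.2 and 727.6 CPM). The log2 differences were -0.44 ± 0.14 in B cells, -0.86 ± 0.15 in T cells, -1.07 ± 0.16 in NK cells and -1.01 ± 0.17 in pDCs (SE; edgeR adjusted p = 0.0187, 1.36e-04, 4.96e-05 and 5.66e-04). The B cell call was lost without either B cell sum (adjusted p = 0.0997 and 0.0539) and with library size alone as the scale (0.105). Neither macrophages (-0.24 ± 0.13, 95% interval -0.50 to 0.02) nor mature DCs (0.14 ± 0.13, interval -0.12 to 0.40) passed. cDC1s stood below cDC2s in both samples (546.6 and 580.1 against 763.6 and 801.3 CPM) with a log2 difference of -0.31 ± 0.14 and an adjusted p of 0.0985, and passed the threshold with library size alone (adjusted p = 0.0115), with DESeq2 (0.0422), with all deposited cells (0.0250) and with doubled gates (0.0476). By UMIs per cell in place of CPM the order changed throughout: cDC1s, whose cells held most UMIs, came first and no class kept its rank.

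**Figure D3:**
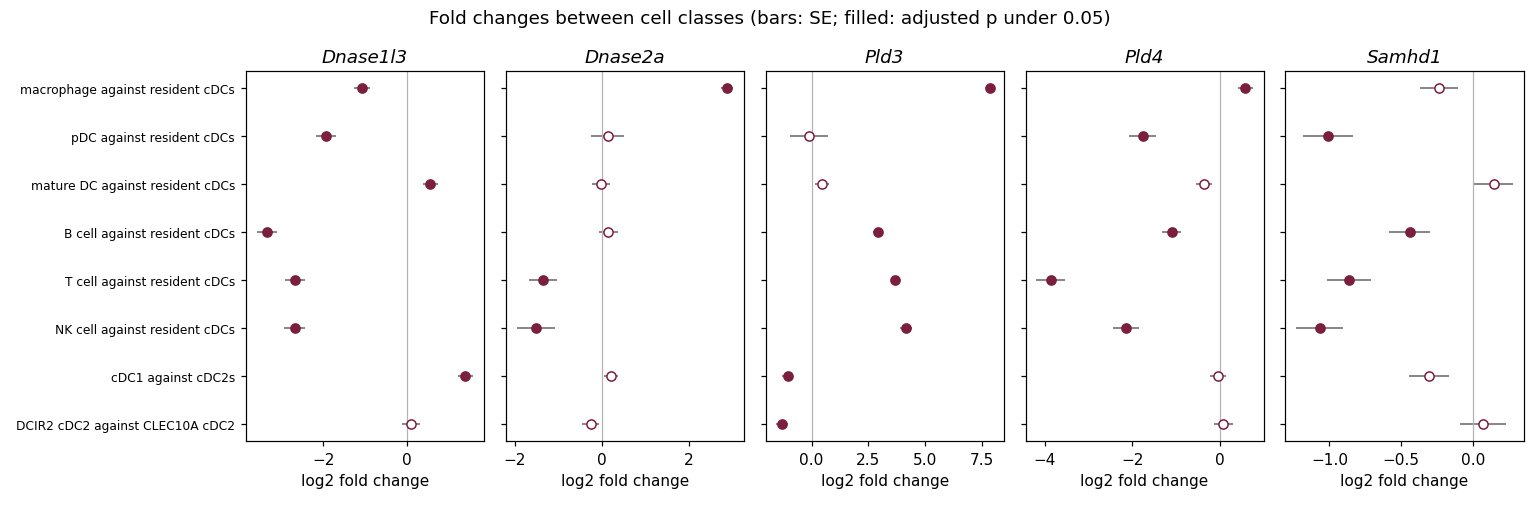
Log2 fold changes of the 5 members in the 8 comparisons between classes, with bars of 1 SE and filled points for an adjusted p under 0.05. Pld3 reaches 7.83 in macrophages and lies above 0 in B, T and NK cells, where Dnase1l3 and Pld4 lie below 0.

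Class by class, the members moved as follows, beside the share of all 11903 genes that passed the same test in that direction. In macrophages 3 of 5 members were higher than in resident cDCs (Dnase2a, Pld3 and Pld4; 27.5% of all genes were higher) and Dnase1l3 was lower (26.6% of all genes). Macrophages also differed in sensor genes. Beside the members, 4 pathway lists of 64 genes were followed (endosomal sensing, cytosolic sensing, other nucleases with RNA editing, and dNTP supply), of which 63 had a column and 59 were tested. Of 18 cytosolic sensing genes 12 were higher and 4 lower, with a median log2 difference of 1.02 against -0.03 for all genes, and of 15 endosomal sensing genes 8 were higher and 3 lower (median 0.42). The genes leading these lists were Ifi204, an interferon-inducible DNA-binding protein (4.39 ± 0.27), and Tlr8, an endosomal RNA sensor (4.95 ± 0.23). Enpp1, which cleaves extracellular cyclic GMP-AMP, was higher by 5.38 ± 0.19 and led the list of other nucleases, of whose 15 tested genes 4 were higher and 3 lower (median 0.29). Of 11 dNTP supply genes 6 were lower and 2 higher (median -0.54), led by Dut and Tyms, which act in thymidylate synthesis (-3.58 ± 0.33 and -3.06 ± 0.46).

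In T cells 4 of 5 members were lower than in resident cDCs (Dnase1l3, Dnase2a, Samhd1 and Pld4; 17.7% of all genes) and Pld3 was higher (16% of all genes). The same members moved in the same directions in NK cells, beside 10.7% of all genes lower and 11.1% higher. In B cells 3 were lower (Dnase1l3, Samhd1 and Pld4; 19.6% of all genes) and Pld3 was higher (16.6%). These comparisons share the cDC sums. Of the endosomal sensing genes 11 of 15 were lower in T cells (median -2.13), 6 in NK cells (median -0.84) and 8 in B cells (median -0.82), and 0, 0 and 3 were higher, with medians of all genes between -0.08 and -0.04. Unc93b1, the chaperone that carries nucleic acid-sensing TLRs to endosomes, stood at 103.1 and 58.6 CPM in T cells and 625.9 and 572.0 CPM in resident cDCs. Ifi203, of the same family as Ifi204, was higher in B, T and NK cells by 1.95 ± 0.11, 1.87 ± 0.11 and 2.01 ± 0.12.

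In mature DCs Dnase1l3 alone was higher (18.2% of all genes) and no member was lower (14.9% of all genes). Of the 59 list genes tested 5 were higher and 16 lower. Irf7, a regulator of interferon genes, was lower by a log2 difference of -1.84 ± 0.23, and the STING gene Tmem173 was higher by 0.65 ± 0.13. In pDCs no member was higher (4.91% of all genes) and 3 were lower (Dnase1l3, Samhd1 and Pld4; 4.76%). Dnase1l3 was 426.4 and 361.2 CPM in pDCs, Pld4 was 154.6 and 57.8 CPM, and 3 cells carried 88.8% and 61.0% of the Dnase1l3 UMIs and 86.2% and 87.5% of the Pld4 UMIs. The class fell below 10 cells in a sample when cells of several gates were left out or the gates were doubled, so these differences could not be fitted there. Of the list genes 1 was higher in pDCs (Tmem173, 0.89 ± 0.21) and 3 were lower. Pld4 in pDCs lost its call without pDC replicate 2 (adjusted p = 0.0711).

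Between cDC1s and cDC2s, Dnase1l3 was higher (18.4% of all genes) and Pld3 was lower (17.5% of all genes) in cDC1s. Of the sensor genes, 10 of 18 cytosolic sensing genes were lower in cDC1s and none was higher (median -1.10 against 0.00 for all genes), and 5 of 15 endosomal sensing genes were higher and 6 lower (median -0.17). Tlr3, the endosomal sensor of double-stranded RNA, was 298.5 and 274.4 CPM in cDC1s and 9.34 and 9.43 CPM in cDC2s. Tlr7, the endosomal sensor of single-stranded RNA, went the other way with 2.49 and 3.40 against 90.3 and 85.3 CPM, and so did Ddx58, which encodes RIG-I, with 3.84 and 3.49 against 80.7 and 74.3 CPM. Between DCIR2 cDC2s and CLEC10A cDC2s only Pld3 passed (lower, beside 3.55% of all genes lower, while 2% were higher). The differences of the other members lay within 95% intervals of -0.33 to 0.53 for Dnase1l3, -0.64 to 0.13 for Dnase2a, -0.25 to 0.38 for Samhd1 and -0.35 to 0.49 for Pld4. Many DCIR2 cDC2s also met the CLEC10A cDC2 gate, so these intervals do not compare separate kinds of cell. Without cells of several gates the Dnase1l3 difference was -0.11. Of the dNTP supply genes 4 of 11 were higher in DCIR2 cDC2s and none was lower (median 0.94), led by Rrm2, a subunit of ribonucleotide reductase (69.4 and 105.1 against 21.4 and 31.6 CPM).

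Along the order of levels of each member, 12 of 40 neighbouring pairs of classes differed past the threshold. By member these were 3 of 8 pairs for Dnase1l3 and Pld3 and 2 of 8 for Dnase2a, Samhd1 and Pld4. Of all 36 pairs per member, 29 differed for Dnase1l3, 28 for Pld3, 27 for Pld4, 19 for Samhd1 and 18 for Dnase2a. Over all genes, 28.6% of the tests of these 36 pairs passed in either direction. No such share was counted for neighbouring pairs alone.

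Some cDC2s carried an interferon response, which allowed the members to be followed with it inside each gated cDC2 class. Cells with at least 5 UMIs over Ifit1, Ifit3, Oasl2, Rsad2 and Usp18 were 86 and 56 of the DCIR2 cDC2s and 83 and 61 of the CLEC10A cDC2s. Samhd1 was higher in them. In DCIR2 cDC2s it was 977.3 and 1050.0 CPM in interferon-high and 791.4 and 770.5 CPM in other cells, and in CLEC10A cDC2s 881.0 and 1174 CPM against 667.1 and 717.4 CPM. Both interferon-high sums lay above both others in each class. The mean log2 difference was 0.53 ± 0.08 (SE; edgeR adjusted p = 0.00233 over 10645 genes). Taken alone, CLEC10A cDC2s passed (0.63 ± 0.12, adjusted p = 0.0159) and DCIR2 cDC2s did not (0.43 ± 0.11, adjusted p = 0.149).

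Dnase1l3 was also higher in interferon-high cDC2s, by 0.43 ± 0.07 (SE; edgeR adjusted p = 0.00403). It was 1217 and 1315 CPM against 1008 and 1002 CPM in DCIR2 cDC2s, and 1339 and 1034 CPM against 839.1 and 929.6 CPM in CLEC10A cDC2s, again without overlap within a class. Dnase1l3 too passed in CLEC10A cDC2s alone (0.49 ± 0.10, adjusted p = 0.0356) and not in DCIR2 cDC2s alone (0.38 ± 0.10, adjusted p = 0.137). By the mean effect Samhd1 and Dnase1l3 were 2 of the 5 members higher, while 1.94% of all genes were higher and 0.47% lower, and no member was lower. Pld4 stood at 395.8 and 309.5 against 331.4 and 313.0 CPM in DCIR2 cDC2s and at 356.1 and 348.2 against 291.8 and 286.1 CPM in CLEC10A cDC2s, and did not pass (0.27 ± 0.08, adjusted p = 0.119). Dnase2a (-0.06 ± 0.16) and Pld3 (0.53 ± 0.48) did not pass either, and Pld3 turned to -0.55 without the interferon-high CLEC10A cDC2s of replicate 2, which held 26 of its UMIs in 61 cells. No effect differed between both cDC2 classes past the threshold, for the members (adjusted p from 0.910 to 1.00) or for any gene.

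Of the cytosolic sensing genes 11 of 18 were higher in interferon-high cDC2s and none was lower (median 1.15 against -0.01 for all genes). Oas3, an oligoadenylate synthase switched on by double-stranded RNA, was higher by 2.71 ± 0.26, and Zbp1, a sensor of Z-form nucleic acids, by 2.24 ± 0.15. Of 15 endosomal sensing genes 2 were higher, of 14 other nucleases 1 was higher, and of 11 dNTP supply genes 1 was higher and 2 were lower. Interferon-high cells were somewhat deeper, with medians of 12781 and 13885 against 12013 and 11823.5 UMIs in DCIR2 cDC2s and 11132 and 12138 against 10797 and 10476 UMIs in CLEC10A cDC2s, and the part of depth in these differences was not tested.

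Cycling cells, with at least 3 UMIs over Mki67 and Top2a, were 122 and 114 of the cDC1s and 159 and 151 of the cDC2s. SAMHD1 acts on the deoxynucleotides that dividing cells make, and its transcript was lower in cycling cells, at 437.2 and 443.6 CPM against 575.5 and 620.8 CPM in cDC1s and 697.0 and 656.3 CPM against 791.4 and 848.1 CPM in cDC2s. The cycling and other sums did not overlap in either class. The mean log2 difference was -0.42 ± 0.05 (SE; edgeR adjusted p = 2.06e-05 over 11980 genes). The difference between the effects in cDC1s (-0.57 ± 0.07) and cDC2s (-0.28 ± 0.07) did not pass (adjusted p = 0.232).

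Dnase1l3 was lower in cycling cells too, at 1527 and 1751 CPM against 2414 and 2634 CPM in cDC1s and 835.2 and 665.3 CPM against 1035 and 1108 CPM in cDC2s. Its mean log2 difference was -0.63 ± 0.06 (SE; edgeR adjusted p = 1.01e-05). Pld3 was lower by a log2 difference of -1.30 ± 0.30 (adjusted p = 0.00658), on 5 and 6 UMIs in cycling cDC1s and 10 and 8 in cycling cDC2s. In cDC1s alone Pld3 did not pass (-1.07 ± 0.47, adjusted p = 0.142), and in cDC2s it did (-1.52 ± 0.39, adjusted p = 0.0164). The cDC2s here pool both cDC2 classes, whose Pld3 levels differed, and the part of their mix was not tested. Dnase2a was lower by -0.39 ± 0.11 (adjusted p = 0.0225), a call lost without 4 of 8 sums in turn and under 3 other settings. In cDC1s alone Dnase2a passed (-0.59 ± 0.16, adjusted p = 0.0245). In cDC2s alone it did not (-0.19 ± 0.16, adjusted p = 0.483), and the cycling and other sums overlapped there. Pld4 did not pass (-0.13 ± 0.06, 95% interval -0.24 to -0.02, adjusted p = 0.113). By the mean effect 4 of 5 members were lower, beside 14.1% of all genes, and none was higher, beside 13.9%.

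The dNTP supply genes rose in cycling cells, 8 of 11 higher and 3 lower (median 2.41 against -0.05 for all genes). Rrm2 was 179.7 and 224.6 CPM in cycling and 1.07 and 1.63 CPM in other cells, and Tk1, thymidine kinase, was higher by 3.86 ± 0.11. Among 16 other nucleases 6 were higher and 1 lower, led by Exo1, a replication and repair exonuclease (3.77 ± 0.23). Of the endosomal sensing genes 1 was higher and 8 were lower, and of the cytosolic ones 3 were higher and 4 lower. Cycling cells were deeper, with medians of 23141 and 24595.5 against 18486 and 20274 UMIs in cDC1s and 15336 and 16333 against 10966 and 10670 UMIs in cDC2s. The part of depth was not tested.

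**Figure D4:**
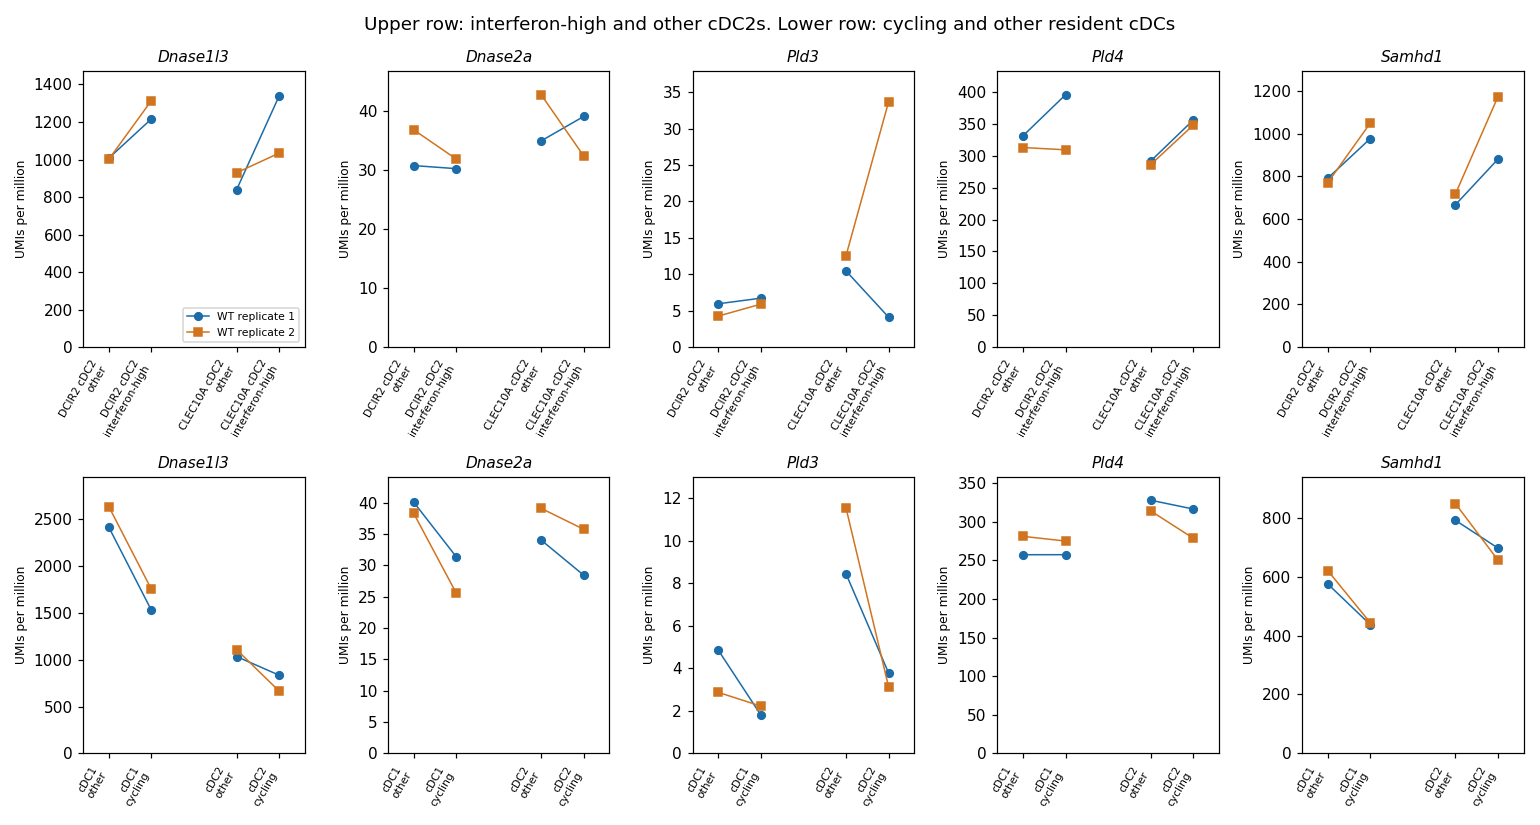
Levels in CPM by state, with lines joining other cells to interferon-high cells of the same cDC2 class and sample (upper row) or to cycling cells of the same sample (lower row). Samhd1 and Dnase1l3 rise in all 4 lines of the upper row and fall in all 4 of the lower row.

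Genes whose pattern over the 9 classes was among the 3 most like that of each member, by Pearson r of the mean log2(CPM + 1) among 6221 genes, were Anpep, Zfp366 and Cpne2 for Dnase1l3 (r from 0.963 to 0.979), P2rx4 and Mfsd1 for Dnase2a (0.978 and 0.960), Acsl1, Oat and Samd4b for Samhd1 (0.896 to 0.941), Neu1, Wwp1 and Smad5 for Pld3 (0.954 to 0.976), and Tns3 and Nckap1l for Pld4 (0.948 and 0.926). Anpep encodes aminopeptidase N and Neu1 the lysosomal sialidase, and both peaked in the class of their member. Among the members themselves r ran from -0.54 (Pld3 and Dnase1l3) to 0.75 (Pld4 and Samhd1). These values describe 9 class means that share their cells and libraries.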

How the data were processed

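Splenic CD11c+ cells of 2 Wild-Type samples were measured on the BD Rhapsody system. Per the file headers, the authors ran the BD Rhapsody WTA Analysis Pipeline (version 1.12.1) on GRCm38 with GENCODE annotation, and deposited tables of UMI counts per cell after recursive substitution error correction, with intronic reads counted. The submitters' processing notes name R 4.2.3 and Seurat 4.3.0.1. The run also carried tags of other mice, not analysed here. The members and all lists were chosen with earlier results of these data known.

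Cells were kept within 3 median absolute deviations of the mean in mitochondrial percent, genes and UMIs, with at least 200 genes. No doublet caller was run. Cells were classed by the first gate met (UMIs): macrophage Vcam1 20 and C1qb 5, mature DC Ccr7 2 and Fscn1 1, cDC1 Clec9a 2 and Xcr1 1, pDC Siglech 3 and Ccr9 1, B Cd79a 3, T Cd3e 2, NK Ncr1 1, DCIR2 cDC2 Clec4a4 2, CLEC10A cDC2 Clec10a + Cd209a 2. Of the kept cells, 1218 met no gate. UMIs were summed per sample and class (18 sums, at least 10 cells each), the gate genes removed, and edgeR 4.0.16 fitted with TMM factors, filterByExpr and the quasi-likelihood test. Each class was contrasted with the mean log2 level of the resident cDC classes. Same-numbered sums come from the same sample and are thereby paired. Their deviations from the class means correlated with a median r of 0.0262 over 36 pairs of classes (3 over 0.1, highest 0.134), 0.0968 over 6 pairs in the interferon fit (3 over 0.1, highest 0.187) and 0.114 over 6 pairs in the cycling fit (3 over 0.1, highest 0.154). A fit with sample as a block was run as an alternative, as were DESeq2 1.42.0 and the settings of the closing section. The script was tested on simulated data. Replicates differed beyond sampling noise in every class (chi-square per degree of freedom from 2.31 to 5.97). Positions are from GENCODE vM21 on GRCm38.

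From the pathway lists a comparison could contribute at most 3 genes a direction: those past the threshold with the largest fold changes, whose direction held in each sample and whose higher group reached 20 CPM. Not all of these are printed. For likeness, the 3 genes with the highest r and at least 50 CPM in their highest class were taken. Some genes that these rules name are not reported here. Macrophages with at least 40 Dnase1l3 UMIs were set apart after the values were seen.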

Additional observations from a re-analysis of the deposited data

Results flagged for a closer look

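Cells that met no gate, 616 in replicate 1 and 602 in replicate 2, enter no comparison, and all 5 members were present in them. Dnase1l3 stood at a mean of 1033 CPM in these cells, within the range of the cDC2 classes, which run from 928.0 to 1046 CPM. Samhd1 stood at 769.4 CPM and Pld4 at 305.2 CPM, also within the ranges of the cDC2 sums. Dnase2a stood at 38.4 CPM. Pld3 stood at 25.3 CPM, between the highest cDC2 sum (16.0 CPM) and the lowest B cell sum (51.6 CPM), and 3 cells carried 32.6% and 25% of its UMIs. The cells were shallower than the cDC2s, with medians of 8908.5 and 9544 UMIs.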

How the results depend on the processing

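Of the alternative values of the members' log2 differences, 20 lost and 9 gained a call. No called member turned direction under an alternative run, and members that were not called turned in the cases below. Fitting the sample as a replicate block changed no member's call (Dnase1l3 in macrophages -1.07 with the block). For the interferon and cycling states, leaving out 1 sum at a time was added after seeing the data. The cause of the changes below was not tested.

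The direction turned for Dnase2a in pDCs (-0.0787 with no filter on low counts, and from -1.06 to 0.53 on leaving out a replicate or a sum), in mature DCs (0.0314 with RLE size factors, 0.0326 with DESeq2, 0.0307 with all cells, 0.0682 without cells of several gates, 0.0128 with doubled gates, -0.20 to 0.17 on leaving out a replicate), in B cells (-0.0207 with no filter, -0.00663 with all cells) and in interferon-high cDC2s (0.33 with at least 10 interferon UMIs, -0.24 to 0.12 on leaving out a replicate or a sum). It turned for Pld3 in pDCs (0.0688 with library size alone, -1.04 to 0.60 on leaving out a replicate or a sum) and in interferon-high cDC2s (-0.55 to 1.00 on leaving out a replicate or a sum), for Pld4 between cDC1s and cDC2s without replicate 1, for Samhd1 in mature DCs (-0.0107 with no filter), and between DCIR2 and CLEC10A cDC2s for Dnase1l3 (-0.11 without cells of several gates, -0.0193 with doubled gates) and Samhd1 (-0.0243 to 0.16 on leaving out a replicate).

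Members called in mature DCs were 2 with no filter. Their number also moved in mature DCs and between the cDC2 classes on leaving out 1 sum. Samhd1 in macrophages passed with no filter (adjusted p = 0.00856), as did Pld4 in mature DCs (8.49e-04) and in cycling cells (0.00957). Genes called on leaving out a replicate ran from 456 to 1144 in pDCs, 2452 to 3740 in mature DCs, 2503 to 4091 in B cells, 1951 to 3829 in T cells, 2749 to 3713 between cDC1s and cDC2s, 210 to 350 between the cDC2 classes (661 with all sums, 1132 without cells of several gates) and 130 to 295 in interferon-high cells (257 with all sums, 529 with no filter).

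With library size alone the share of called genes that were higher went from 50.8 to 70.1% in pDCs, 45.8 to 58.1% in B cells, 47.5 to 60.4% in T cells, 50.9 to 70.4% in NK cells, 51.3 to 34.4% between cDC1s and cDC2s and 49.6 to 63.7% in cycling cells, and with DESeq2 to 65.4% in pDCs and 61.9% in NK cells. The median of all genes moved by over 0.1 on the log2 scale under library size alone, for example from -0.08 to 0.16 in NK cells.

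Shares of cells with a UMI depend on depth. In the highest class of each member, thinning to 4000 and 2000 UMIs gave 92.6 and 86.2% for Dnase1l3, 64.5 and 39.1% for Dnase2a, 92.6 and 78.5% for Samhd1, 98.9 and 91.7% for Pld3 and 78.7 and 49.7% for Pld4. By UMIs per cell, 5, 5, 0, 7 and 4 of 9 classes had the same rank as by CPM. With all deposited cells Pld3 in macrophages was 1266 CPM. With 2 samples, pDC, T and NK sums hold few UMIs, and absence of a call there shows no equality.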

Other observations

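The macrophages with at least 40 Dnase1l3 UMIs, a threshold chosen after the values were seen, also differed in other members. Pld3 stood at 1052 and 1089 CPM in them and 1388 and 1325 CPM in the other macrophages. Pld4 stood at 390.3 and 224.4 against 435.2 and 423.6 CPM, and Dnase2a at 234.2 and 177.7 against 282.9 and 228.3 CPM. Samhd1 went opposite ways in the samples, at 463.8 and 696.6 against 549.4 and 575.0 CPM. Spic, a transcription factor of red pulp macrophages, stood at 1258 and 715.3 against 2010 and 2056 CPM, and Clec9a, a cDC1 gene, at 101.0 and 107.5 against 47.8 and 35.3 CPM. These cells held medians of 25119 and 28006.5 UMIs against 19215.5 and 17927. They were 9 and 8 cells, no test was run, and whether they hold RNA of a second cell was not tested.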
